A study of Rattus norvegicus with 12 samples.

Results

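The chemokines and their receptors were followed in rat laryngeal muscle after section of the recurrent laryngeal nerve. Members were taken by gene symbol alone: 52 of the 14324 genes measured on the arrays were named as a CC, CXC, CX3C or XC ligand, as a receptor of these classes, as an atypical receptor (Ackr) or as Ccrl2. They comprised 33 ligands and 19 receptors, and each was measured by a single probe set. All arrays came from male F344 rats that were given ketamine and xylazine and operated on by one and the same approach. The groups were PCA injury, PCA control, AC injury and AC control, with 3 arrays each. In the injured rats a 1 cm piece of the nerve was removed on one side of the neck, and in the control rats the nerve was left alone. Muscle was collected 1 week later. PCA is the posterior cricoarytenoid muscle, which opens the vocal folds, and AC is the adductor complex, which closes them. The labels give 10 animals per surgery but do not tie animals to arrays, and they do not say whether a PCA and an AC array came from the same larynx or from which side, so p-values here reflect variation among single arrays, which need not be that among animals.

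Chemokines are small secreted proteins that bind G protein-coupled receptors on leukocytes and steer their movement towards the source. They are held on the sugar chains of cell surfaces and matrix, and they are classed by the spacing of the first cysteines. Ligands of the CC class mostly attract monocytes, lymphocytes and eosinophils, whereas CXC ligands with the Glu-Leu-Arg (ELR) motif attract neutrophils. Atypical receptors bind ligands without G protein signalling and are known to clear them. In damaged muscle and nerve, Ccl2 and its receptor Ccr2 are best known for bringing in monocytes that become macrophages.

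Values are log2 expression values as deposited, and differences are log2 differences ± SE from limma with 3 arrays per group. A gene was called at a Benjamini-Hochberg adjusted p of 0.05 over all 14324 genes. A probe set's level cannot be set against that of another gene, so levels are compared only between arrays. The specimens held skeletal muscle: all 14 skeletal muscle fibre markers lay above the dim level on every array. Their list mean was 11.51 to 12.33 in PCA injury, 12.51 to 12.70 in PCA control, 11.86 to 12.04 in AC injury and 12.15 to 12.40 in AC control. These markers neither tell PCA from AC nor exclude other tissue, whose markers are given below. The dim level was 5.93, the 95th percentile of 53 olfactory receptor genes. Of the 52 members 47 exceeded it in the mean of at least 1 group. The exceptions were Ccl25, Ccl26, Ccr3, Ccr9 and Cxcl3.

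The first comparison asked which members differed in PCA after nerve section. In injured PCA 17 members rose and 2 fell, or 36.5% of members, against 25.8% of all genes. Those that rose made up 32.7% of members, against 13.3% of all genes, and the fallers 3.85%, against 12.5%. The risers were 11 ligands, led by Ccl9, Ccl2, Cxcl6 and Ccl3, and 6 receptors, led by Cxcr2, Ccr2, Cx3cr1 and Ccr1. Of the 19 called members 11 differed by at least 2-fold. The median difference was 0.15 over the members and -0.027 over all genes. These bulk specimens do not separate more cells of a type from more RNA per cell.

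**Figure D1:**
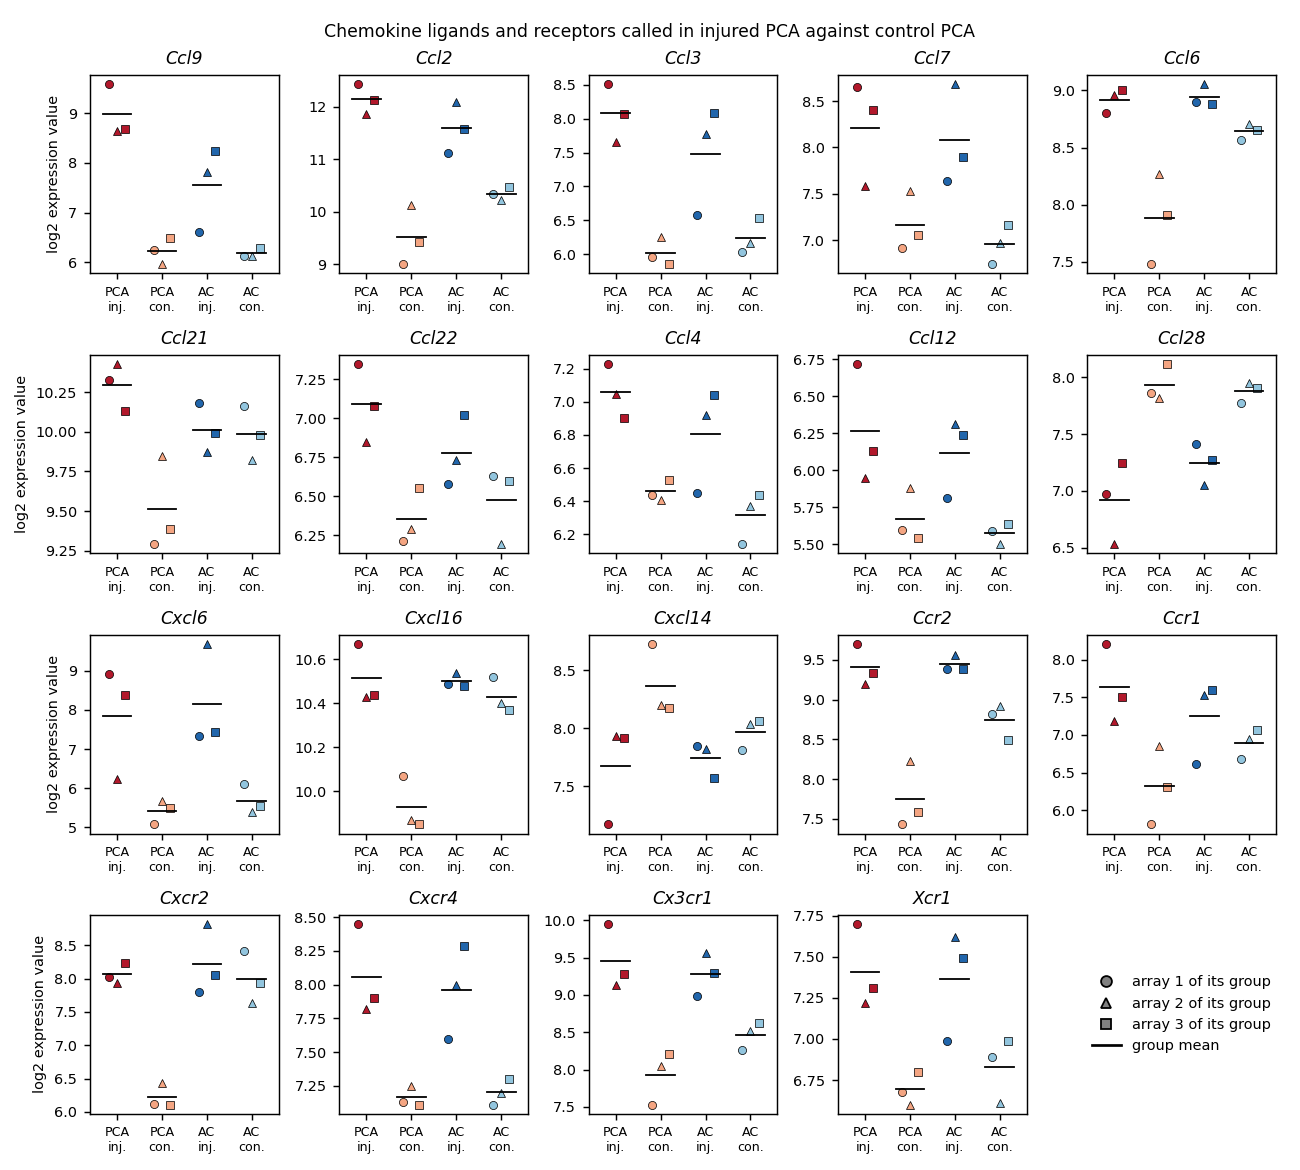
Log2 expression value (y axis, a separate scale per panel) of the 19 members called in injured PCA against control PCA, by array in PCA injury, PCA control, AC injury and AC control (x axis, left to right). Points are arrays and lines are group means. For Cxcr2 the 3 PCA control arrays (6.11 to 6.43) lie below all the other 9 arrays, whereas for Ccl9 both control groups lie low.

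The CC ligands that bind Ccr2 rose in injured PCA together with that receptor. Ccl2, a main attractant of monocytes, stood at 12.44, 11.86 and 12.13 in injured PCA, against 9.0, 10.13 and 9.43 in control PCA. It rose by 2.62 ± 0.29 (adjusted p = 0.000307), with every injured array above every control. Ccr2, its receptor on monocytes, stood at 9.70, 9.20 and 9.34 in injured PCA, against 7.43, 8.23 and 7.59 in control PCA. No arrays overlapped, and the rise was 1.66 ± 0.20 (adjusted p = 0.000409). Ccl7, another Ccr2 ligand, measured 8.65, 7.58 and 8.41 in injured PCA, against 6.92, 7.53 and 7.05 in control PCA. PCA injury 2 and PCA control 2 nearly met, and the rise of 1.05 ± 0.31 (adjusted p = 0.028) lost its call in 8 of 22 alternative settings. Ccl12, which binds Ccr2 in the mouse, rose by 0.59 ± 0.19 (adjusted p = 0.0397) and lost its call in 12 of 22 settings.

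Ligands of Ccr1 formed the other large set of CC risers. Ccl9, known in the mouse as a Ccr1 ligand that attracts myeloid cells, measured 9.60, 8.65 and 8.68 in injured PCA, against 6.25, 5.96 and 6.49 in control PCA. Its rise of 2.74 ± 0.36 (adjusted p = 0.000614) was the largest among the members. Ccl3, a macrophage inflammatory protein, measured 8.52, 7.66 and 8.07 in injured PCA, against 5.95, 6.25 and 5.85 in control PCA. The arrays did not overlap and the rise was 2.07 ± 0.34 (adjusted p = 0.00171). Ccl6, a myeloid chemokine known from the mouse, was even across injured PCA at 8.80, 8.96 and 9.0, against 7.48, 8.27 and 7.91 in control PCA. It rose by 1.03 ± 0.16 (adjusted p = 0.00119). Ccr1 itself, a receptor of monocytes and neutrophils, measured 8.21, 7.19 and 7.51 in injured PCA, against 5.81, 6.85 and 6.31 in control PCA. The gap between the groups was narrow at PCA control 2, and the rise of 1.31 ± 0.33 (adjusted p = 0.0139) lost its call without PCA injury 1 or without PCA control 1. Ccl4, the close relative of Ccl3, rose by 0.60 ± 0.15 (adjusted p = 0.0119). Ccl5, which attracts T cells, was at 0.22 ± 0.08 and was not called (adjusted p = 0.0772).

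Among the remaining CC ligands, Ccl21 and Ccl22 rose and Ccl28 fell. Ccl21, which guides dendritic cells and T cells through Ccr7 and is made by lymphatic endothelium, measured 10.33, 10.43 and 10.13 in injured PCA, against 9.29, 9.85 and 9.39 in control PCA. It rose by 0.79 ± 0.15 (adjusted p = 0.00371). The 4 lymphatic endothelium markers had a list mean of 8.80 to 8.95 in injured PCA and 8.20 to 8.58 in control PCA, and 1 of them rose. The part of lymphatic vessels in the Ccl21 rise was not tested. Ccl22, a product of macrophages and dendritic cells that attracts regulatory T cells through Ccr4, measured 7.35, 6.85 and 7.08 in injured PCA, against 6.21, 6.29 and 6.55 in control PCA, a rise of 0.74 ± 0.17 (adjusted p = 0.0079). Ccl28, a ligand of mucosal epithelium that binds Ccr10, was lower in every injured array: 6.97, 6.53 and 7.25 in injured PCA, against 7.86, 7.82 and 8.12 in control PCA. It fell by 1.02 ± 0.16 (adjusted p = 0.00159). Of 8 airway and gland epithelium markers 3 fell and none rose in injured PCA, with list means of 9.50 to 10.01 in injured PCA and 9.97 to 10.21 in control PCA. Their part in the Ccl28 fall was not tested. The eotaxins Ccl11, Ccl24 and Ccl26, which attract eosinophils through Ccr3, were at -0.16 ± 0.18, 0.24 ± 0.23 and 0.07 ± 0.08, and none was called. Ccl17, Ccl19, Ccl20, Ccl25 and Ccl27 lay between -0.33 and 0.06 and were not called either.

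Among neutrophil attractants a single ligand passed, and it varied widely between arrays. Cxcl6 measured 8.92, 6.23 and 8.38 in injured PCA, against 5.07, 5.66 and 5.50 in control PCA. All injured arrays were above all controls, but PCA injury 2 stood far below the other injured pair. The rise of 2.43 ± 0.70 (adjusted p = 0.0254) lost its call in 7 of 22 settings. Cxcl2 measured 6.74, 5.21 and 6.31 in injured PCA, against 5.38, 5.31 and 5.23 in control PCA, with PCA injury 2 at the level of the controls (0.78 ± 0.38, adjusted p = 0.16). Cxcl3 was at 0.41 ± 0.18 and Cxcl1 at 0.03 ± 0.16, both uncalled. Their receptor Cxcr2 was even: 8.02, 7.94 and 8.24 in injured PCA, against 6.12, 6.43 and 6.11 in control PCA. It rose by 1.85 ± 0.25 (adjusted p = 0.000664), whereas the neighbouring receptor gene Cxcr1 was at -0.05 ± 0.10 (adjusted p = 0.798). Of 12 neutrophil markers 1 rose and none fell, whereas 13.3% of all genes rose and 12.5% fell. The list mean was 6.16 to 6.43 in injured PCA and 6.0 to 6.13 in control PCA. Its members S100a8, Ltf and Fpr1 had means below the dim level in all groups.

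The promoters of 4 ligands are shown because their genes range from the largest PCA rise (Ccl9) to no call (Cxcl1), and 3 of them come from 1 run of neutrophil attractants. They run from 250 bases before to 50 after the annotated start, from RefSeq on build GRCr8, each on the minus strand: Ccl9 at chr10:68868828-68869127, Cxcl6 at chr14:17596368-17596667, Cxcl1 at chr14:17479272-17479571 and Cxcl2 at chr14:17467206-17467505. Capitals mark matches to the NF-kB consensus on either strand, the site of a factor known to switch on chemokine genes. Overlapping matches were merged.
Ccl9: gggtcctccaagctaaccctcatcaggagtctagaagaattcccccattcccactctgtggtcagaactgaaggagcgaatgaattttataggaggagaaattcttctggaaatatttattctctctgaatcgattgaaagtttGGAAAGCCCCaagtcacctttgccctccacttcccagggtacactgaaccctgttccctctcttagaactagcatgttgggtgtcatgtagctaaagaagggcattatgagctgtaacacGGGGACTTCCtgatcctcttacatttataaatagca
Cxcl6: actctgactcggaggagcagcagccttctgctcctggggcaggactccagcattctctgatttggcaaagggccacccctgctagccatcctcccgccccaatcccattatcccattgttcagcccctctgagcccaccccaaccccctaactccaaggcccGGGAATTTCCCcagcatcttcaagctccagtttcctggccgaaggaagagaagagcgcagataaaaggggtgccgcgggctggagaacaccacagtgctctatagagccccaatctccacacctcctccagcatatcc
Cxcl1: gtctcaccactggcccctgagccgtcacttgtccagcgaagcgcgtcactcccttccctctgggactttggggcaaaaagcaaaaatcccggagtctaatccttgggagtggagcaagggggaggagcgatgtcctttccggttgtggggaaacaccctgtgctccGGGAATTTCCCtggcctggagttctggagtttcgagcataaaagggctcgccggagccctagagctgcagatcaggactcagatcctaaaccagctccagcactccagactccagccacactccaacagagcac
Cxcl2: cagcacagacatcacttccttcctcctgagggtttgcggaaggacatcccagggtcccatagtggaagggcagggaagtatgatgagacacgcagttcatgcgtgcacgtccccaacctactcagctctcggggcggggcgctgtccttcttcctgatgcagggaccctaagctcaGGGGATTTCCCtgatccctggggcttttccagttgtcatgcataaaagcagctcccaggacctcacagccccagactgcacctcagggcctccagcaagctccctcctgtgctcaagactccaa

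Cxcl6 and Cxcl1 hold the same site, GGGAATTTCCC, whose first base lies at -88 and -84 from the start, and Cxcl2 holds GGGGATTTCCC from -74. Cxcl6 rose in injured PCA by 2.43 ± 0.70, whereas Cxcl2 was at 0.78 ± 0.38 and Cxcl1 at 0.03 ± 0.16. A match was found in 9 of the 41 member promoters in the RefSeq table (22%), against 7.57% of all 27457 promoters of that length. It was in 3 of the 14 promoters of members that rose in injured PCA (21.4%) and in 6 of the 27 others (22.2%). The risers Ccl2, Ccl3 and Ccl4 had no promoter in that table, so the 14 leave them out for every motif here. The AP-1 motif TGANTCA, likewise on either strand, was in 7 of the 41 (17.1%, against 7.39% of all), in 2 of the 14 and in 5 of the 27. The letters TATAAA, on either strand and at any place in the stretch, were in 5 of the 14 (35.7%) and 6 of the 27 (22.2%). The share of all promoters was 14.3%. The place of the match was not considered, so it need not be a TATA box. The GAS motif TTCNNNGAA, on which STAT factors are known to act, was in 1 of the 14 (7.14%) and 5 of the 27 (18.5%), against 8.69% of all. A match is a description of letters and not of binding.

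Of the CXC ligands without the ELR motif, Cxcl16 rose and Cxcl14 fell. Cxcl16, a membrane-bound ligand shed by macrophages and other cells, measured 10.67, 10.43 and 10.44 in injured PCA, against 10.07, 9.87 and 9.85 in control PCA. The rise was small and even (0.58 ± 0.09, adjusted p = 0.00117), and its receptor Cxcr6 was at 0.15 ± 0.18 without a call. Cxcl14, an epithelial and stromal ligand, measured 7.17, 7.93 and 7.92 in injured PCA, against 8.73, 8.20 and 8.18 in control PCA. It fell by 0.70 ± 0.21 (adjusted p = 0.0292), and this lost its call in 6 of 22 settings. Cxcl13, the B cell attractant, measured 11.05, 9.97 and 9.16 in injured PCA, against 8.13, 8.66 and 8.82 in control PCA. Its groups did not overlap, but the spread among injured arrays was wide and 1.52 ± 0.52 narrowly missed the call (adjusted p = 0.0517). Its receptor Cxcr5 was at -0.04 ± 0.10. Cxcl12, a stromal ligand that retains leukocytes and stem cells, was at 0.18 ± 0.09 (adjusted p = 0.174), and the mucosal ligand Cxcl17 at -0.43 ± 0.15 (adjusted p = 0.0554).

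Receptors of other classes also rose. Cxcr4, the signalling receptor of Cxcl12, measured 8.45, 7.82 and 7.90 in injured PCA, against 7.13, 7.25 and 7.11 in control PCA. It rose by 0.89 ± 0.18 (adjusted p = 0.00502), while Ackr3, which clears Cxcl12, was at -0.19 ± 0.13 (adjusted p = 0.314). Cx3cr1, a receptor of monocytes and macrophages, measured 9.95, 9.13 and 9.28 in injured PCA, against 7.53, 8.05 and 8.21 in control PCA, a rise of 1.52 ± 0.23 (adjusted p = 0.00125). Its ligand Cx3cl1, made by endothelium and neurons, was spread within both groups and stood at 0.15 ± 0.32 (adjusted p = 0.787). Xcr1, a receptor of cross-presenting dendritic cells, rose by 0.72 ± 0.17 (adjusted p = 0.0114), and its ligand Xcl1 was at 0.03 ± 0.10. The receptors Ccr3, Ccr4, Ccr6, Ccr7, Ccr9, Ccr10, Cxcr3, Ackr2 and Ccrl2 lay between -0.03 and 0.26 and were not called.

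**Figure D2:**
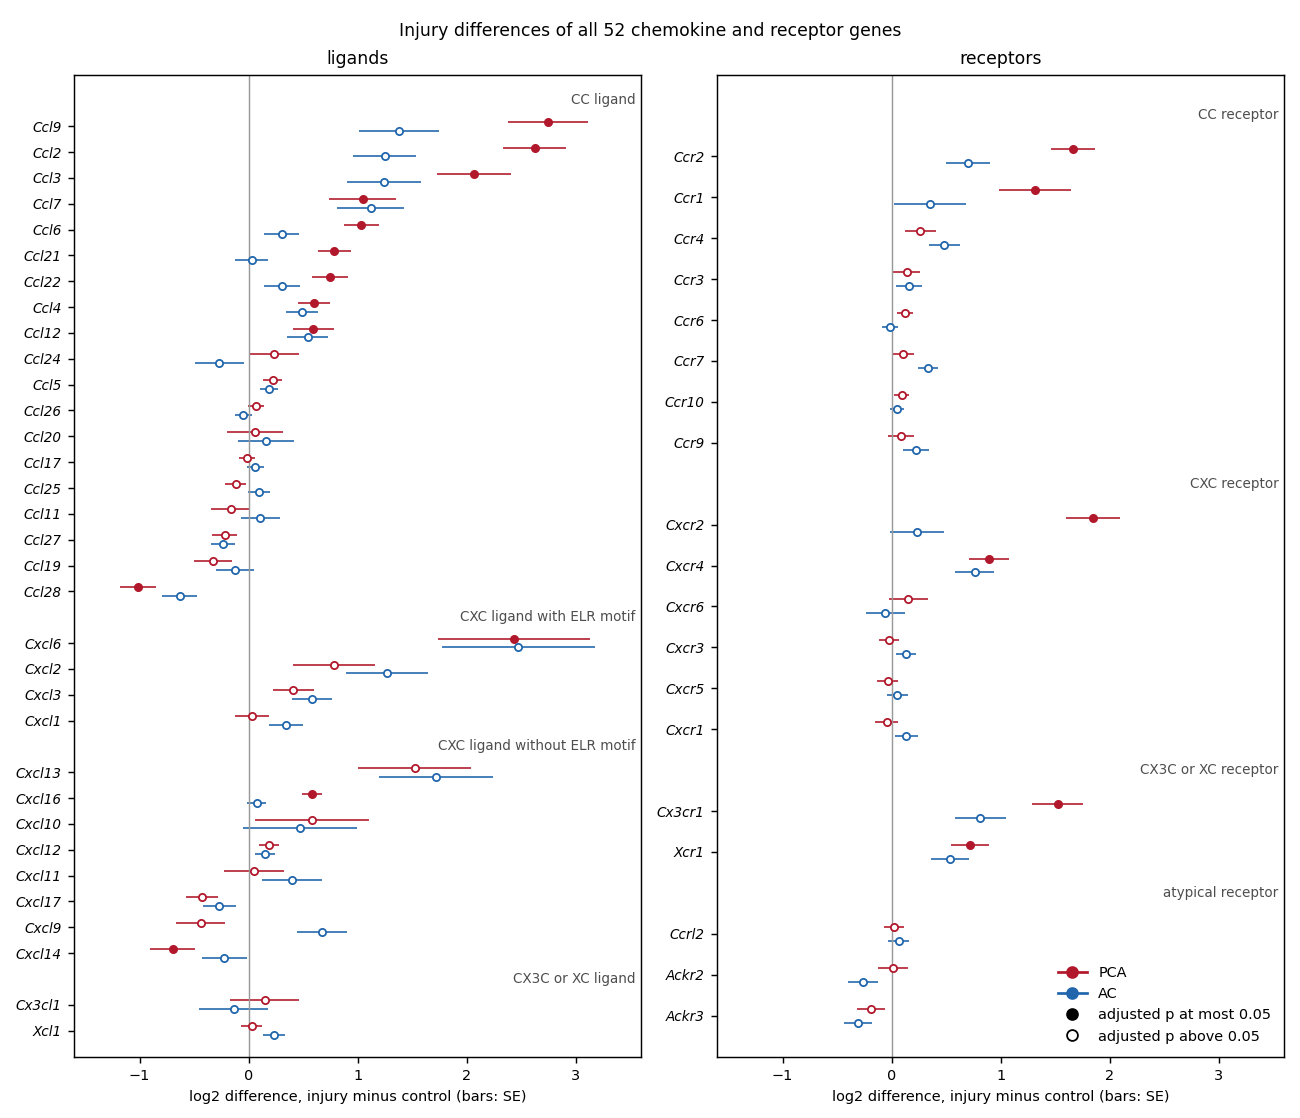
Log2 difference, injury minus control, with SE (x axis) for all 33 ligands and 19 receptors (y axis, by class), in PCA (red) and AC (blue). Filled points have an adjusted p of at most 0.05: 19 are filled in PCA and 0 in AC, although many AC points of the CC ligands lie clear of 0.

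Set side by side as known pairs, ligand and receptor rose together in injured PCA for 7 of 30 pairs: Ccl2, Ccl7 and Ccl12 with Ccr2, Ccl3, Ccl6 and Ccl9 with Ccr1, and Cxcl6 with Cxcr2. In 3 pairs the ligand rose without a call of the receptor, namely Ccl22 with Ccr4, Ccl21 with Ccr7 and Cxcl16 with Cxcr6. In 7 pairs the receptor rose without a call of that ligand, and these included Cxcr4 with Cxcl12, Cx3cr1 with Cx3cl1 and Xcr1 with Xcl1. Pairs that share a receptor are not independent of each other. In injured AC 0 of the 30 pairs had a called member.

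Marker lists of cell types were read in injured PCA, where 13.3% of all genes rose and 12.5% fell. Of 18 macrophage markers 17 rose and none fell, with a median difference of 1.70, and the list mean was 10.00 to 10.46 in injured PCA and 8.01 to 8.80 in control PCA. Of 14 T and NK cell markers 3 rose and none fell (6.13 to 6.36 in injured PCA, 5.98 to 6.20 in control PCA), with a median difference of only 0.122. Among them Cd3d, Ncr1 and Klrb1 had means below the dim level in all groups. Of 8 fibroblast markers 7 rose (11.82 to 12.22 in injured PCA, 10.77 to 11.29 in control PCA). Of 8 squamous epithelium markers, which mark the mucosa beside the muscle, 7 rose (10.36 to 10.92 in injured PCA, against 8.33, 9.96 and 7.93 in control PCA). With the squamous score of each array as a covariate, 2 of the 19 members kept their call (Ccl2 and Ccl9), and Cxcl9, not among the 19, was called lower (-1.23). The differences of 17 of the 19 stayed within 1.5 times of those without the score, while their SE grew by 1.33 to 1.82 times. Ccl3 was at 2.07 ± 0.62, Cx3cr1 at 1.75 ± 0.42 and Cxcr2 at 1.58 ± 0.44 with the score. The exceptions were Ccl21, at 0.29 ± 0.20 with the score, and Ccl6, at 0.60 ± 0.23. Within groups the score was spread most in PCA control, with PCA control 2 highest, so values with the score lean on that array. The part of each cell type in the member differences was not tested.

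Other marker lists changed as follows in injured PCA. Of 10 adipocyte markers 9 fell, of 9 cartilage markers 9 fell, and of 14 muscle fibre markers 7 fell. Of 7 dendritic cell markers 2 rose and 1 fell, of 4 B and plasma cell markers 1 fell, and of 7 Schwann cell markers 1 rose and 2 fell. In limma 0 of 8 mast cell, 4 eosinophil, 7 endothelium, 3 red cell and 14 thyroid and parathyroid markers were called, and 0 of these passed an unadjusted p of 0.05. PCA control 1, PCA injury 2 and AC injury 2 stood apart in thyroid and parathyroid markers, with list means of 9.88, 9.67 and 8.43 against 6.33 to 7.20 in the other arrays. Without these 3 arrays 16 of the 19 members kept their call in PCA, Ccl12, Ccl4 and Cxcl14 lost it, and Cxcl2 and Cxcl3 were newly called.

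**Figure D3:**
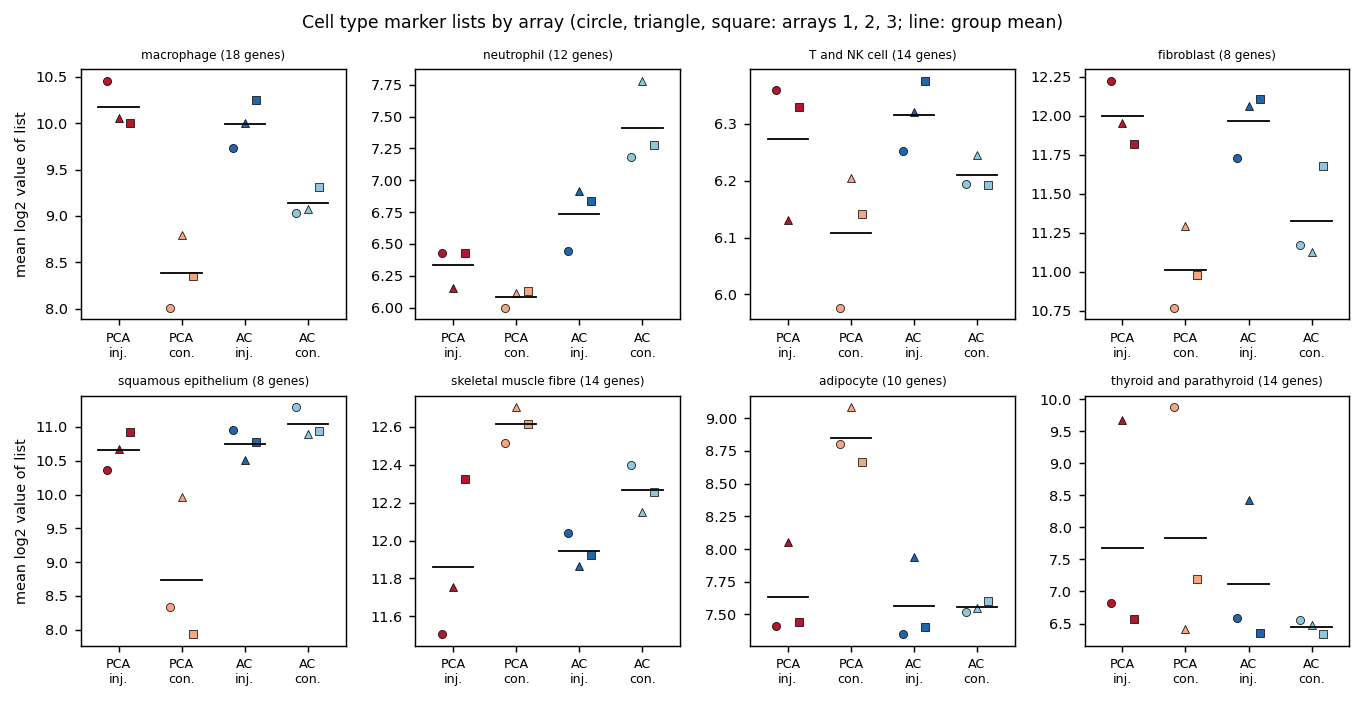
Mean log2 value (y axis) of 8 marker lists by array in PCA injury, PCA control, AC injury and AC control (x axis, left to right). Macrophage means are 10.00 to 10.46 in PCA injury and 8.01 to 8.80 in PCA control, and squamous epithelium means in PCA control (7.93 to 9.96) are the lowest of the 4 groups.

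Single arrays ranked similarly across the risers. PCA injury 1 was the highest injured PCA array for 14 of the 17 risers, and PCA injury 2 the lowest for 14. Among controls, PCA control 2 was the highest for 11 of the 17, and its macrophage list mean (8.80) was also above those of PCA control 1 and 3 (8.01 and 8.36). The number called was 14 without PCA injury 1 or without PCA control 1, and 21 without PCA injury 2 or without PCA control 2.

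The second comparison asked the same of the AC. No member was called in injured AC by limma (0 of 52, against 1.89% of all genes), but 22 of 52 passed an unadjusted p of 0.05, or 42.3%, against 20.3% of all genes. Of these 20 were higher and 2 lower in injured AC, against 11.3% and 8.93% of all genes. All 3 injured AC arrays lay above all 3 controls for 20 members, or 38.5%, against 15.3% of all genes. The median difference was 0.205 over the members and 0.017 over all genes. Fitted on the AC arrays alone, limma called 7 members: Ccl2, Ccr2, Cx3cr1, Cxcl3, Cxcl9 and Cxcr4 were higher and Ccl28 was lower. With array weights it called 6. Cxcl3 had means below the dim level in all groups. The shares of all genes called in these settings are not given, so these counts cannot be read against a background.

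Ccl2 came nearest to a call in AC. It measured 11.11, 12.09 and 11.57 in injured AC, against 10.34, 10.22 and 10.47 in control AC, a difference of 1.25 ± 0.29 (adjusted p = 0.0539) with groups apart. Cxcr4 measured 7.60, 8.0 and 8.29 in injured AC, against 7.11, 7.20 and 7.30 in control AC (0.76 ± 0.18, adjusted p = 0.0595). Both genes thus had wide injured groups above tight control groups. Ccl28 measured 7.41, 7.05 and 7.27 in injured AC, against 7.77, 7.95 and 7.91 in control AC, lower in every injured array as in PCA (-0.63 ± 0.16, adjusted p = 0.0736).

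The myeloid ligands that led in PCA were uneven in injured AC. Ccl9 measured 6.61, 7.81 and 8.24 in injured AC, against 6.12, 6.12 and 6.29 in control AC (1.38 ± 0.36, adjusted p = 0.0769). Ccl3 measured 6.57, 7.78 and 8.08 in injured AC, against 6.03, 6.16 and 6.53 in control AC (1.24 ± 0.34, adjusted p = 0.0827). In both, AC injury 1 lay just above the controls and the other injured arrays well above them. Cxcl6 measured 7.33, 9.69 and 7.43 in injured AC, against 6.10, 5.38 and 5.55 in control AC, and the difference of 2.47 ± 0.70 (adjusted p = 0.0875) was the largest of any member in AC. Cxcl13 measured 9.94, 11.46 and 9.47 in injured AC, against 8.97, 8.32 and 8.43 in control AC (1.72 ± 0.52, adjusted p = 0.102). For both CXC ligands AC injury 2 was the highest of the 12 arrays. AC injury 1 was the lowest injured AC array for 14 of the 17 PCA risers. Without AC injury 1, 7 members were called in AC, all higher: Ccl2, Ccl3, Ccl4, Ccl9, Cxcl2, Cxcr4 and Xcr1. For that setting too the share of all genes called is not given.

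Among receptors in AC, Ccr2, Cx3cr1 and Ccr7 stood apart between groups and Cxcr2 did not. Ccr2 measured 9.38, 9.56 and 9.39 in injured AC, against 8.82, 8.92 and 8.49 in control AC (0.70 ± 0.20, adjusted p = 0.0897). Cx3cr1 was at 0.81 ± 0.23 (adjusted p = 0.0922) with groups apart, and Ccr7, the receptor that takes dendritic and T cells to lymph nodes, was at 0.33 ± 0.09 (adjusted p = 0.0863). Cxcr2 measured 7.80, 8.82 and 8.06 in injured AC, against 8.41, 7.63 and 7.94 in control AC, so its groups overlapped (0.23 ± 0.25, adjusted p = 0.654). Of 18 macrophage markers 5 rose in AC, with list means of 9.73 to 10.24 in injured AC and 9.03 to 9.31 in control AC. Of 12 neutrophil markers 4 fell, Camp, Mpo and Ngp among them, with list means of 6.45 to 6.91 in injured AC and 7.18 to 7.78 in control AC. The list was not uniform: groups stood apart with injury lower for 4 markers and higher for 1. The latter was Csf3r, at 7.91, 9.71 and 8.40 in injured AC, against 7.12, 7.46 and 7.09 in control AC. The part of these cells in the member values was not tested.

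Both injury comparisons used separate arrays. Of the 17 members that rose in PCA, 17 had a difference above 0 in AC, against 53.7% of all genes. For 15 the difference was smaller in AC than in PCA. The 17 were chosen by their called rise in PCA, and that choice alone favours smaller differences in AC. The 53.7% covers all genes, also those that did not rise in PCA. The share among all genes called higher in injured PCA is not given, so this agreement cannot be read as particular to the members. For 11 of the 17 (64.7%) the AC groups also stood apart with injury higher, and those 11 were 55% of the 20 such members in AC. The difference between the injury effects, PCA minus AC, was tested directly. Limma called 0 of 52 members (0.154% of all genes), and 8 members passed an unadjusted p of 0.05, or 15.4%, against 15.7% of all genes. Cxcl16 and Cxcr2 came nearest: Cxcr2 had a PCA effect larger by 1.61 ± 0.35 (95% interval 0.84 to 2.39, adjusted p = 0.0684), and Cxcl16 by 0.51 ± 0.12 (0.23 to 0.79, adjusted p = 0.0858). For Ccl2 the difference of effects was 1.38 ± 0.41 (0.48 to 2.27, adjusted p = 0.126), and for Cxcl6 it was -0.04 ± 0.99 (-2.21 to 2.13). Without PCA control 2, 5 members were called with the larger effect in PCA (Ccl2, Ccl21, Ccl6, Ccr2 and Cxcr2).

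The control muscles were compared as well, and the share of members called was no higher than that of all genes. Control PCA was lower than control AC for 4 members and higher for none, or 7.69% of members lower, against 7.39% of all genes lower and 3.24% higher (10.6% in all). Cxcr2 stood at 6.12, 6.43 and 6.11 in control PCA, against 8.41, 7.63 and 7.94 in control AC (-1.77 ± 0.25, adjusted p = 0.0028). Ccr2 was lower in control PCA as well (-0.99 ± 0.20, adjusted p = 0.0101), as were Ccl6 (-0.76 ± 0.16, adjusted p = 0.012) and Cxcl16 (-0.50 ± 0.09, adjusted p = 0.00599). These 4 also rose in injured PCA, but both comparisons use the same 3 PCA control arrays. Control PCA was also lower in macrophage markers (7 of 18 called lower), neutrophil markers (7 of 12) and squamous epithelium markers (7 of 8), and higher in adipocyte (8 of 10), cartilage (6 of 9) and muscle fibre markers (4 of 14). With the squamous score as a covariate 0 members were called in this comparison. Cxcr2 was then at -1.45 ± 0.50 and Cxcl16 at -0.60 ± 0.18, within 1.5 times of the differences without the score, whereas Ccr2 was at -0.38 ± 0.35 and Ccl6 at -0.23 ± 0.27. The part of the other cell types was not tested. Without PCA control 2, which had the highest squamous score of the PCA controls, 7 members were called.

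The injured muscles were compared in the same way. Limma called 0 of 52 members between injured PCA and injured AC and 0 of 14324 genes (0.0%), while 3 members passed an unadjusted p of 0.05, against 3.6% of all genes. For Cxcr2 the difference was -0.16 ± 0.25 (95% interval -0.71 to 0.39), for Ccr2 -0.03 ± 0.20 (-0.47 to 0.41) and for Cxcl16 0.01 ± 0.09 (-0.18 to 0.20). Ccl9 had the largest difference, 1.42 ± 0.36 higher in injured PCA (0.62 to 2.22, adjusted p = 0.999), with all 3 injured PCA arrays above all 3 injured AC arrays. Ccl11 was at -0.59 ± 0.18.

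Many chemokine genes lie next to each other, and neighbours were not all called together. In the RefSeq order of the rat genome, Ccl2, Ccl7, Ccl11 and Ccl12 are consecutive genes on chromosome 10. Ccl2, Ccl7 and Ccl12 rose in injured PCA, whereas Ccl11, which lies between them, measured 7.38, 6.73 and 7.19 in injured PCA, against 7.04, 7.58 and 7.17 in control PCA. A further run of chromosome 10 holds Ccl5, Ccl9, Ccl6, Ccl3 and Ccl4, of which all but Ccl5 rose. On chromosome 19 Ccl22 rose, next to Cx3cl1 and Ccl17 without a call. On chromosome 8 Ccr1 and Ccr2 rose, and Ccr3, which lies between them, measured 4.00, 3.70 and 3.82 in injured PCA, against 3.73, 3.69 and 3.69 in control PCA, below the dim level. On chromosome 9 Cxcr2 rose next to Cxcr1, which did not pass. Whether probe sets of related neighbours share sequence was not tested.

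**Figure D4:**
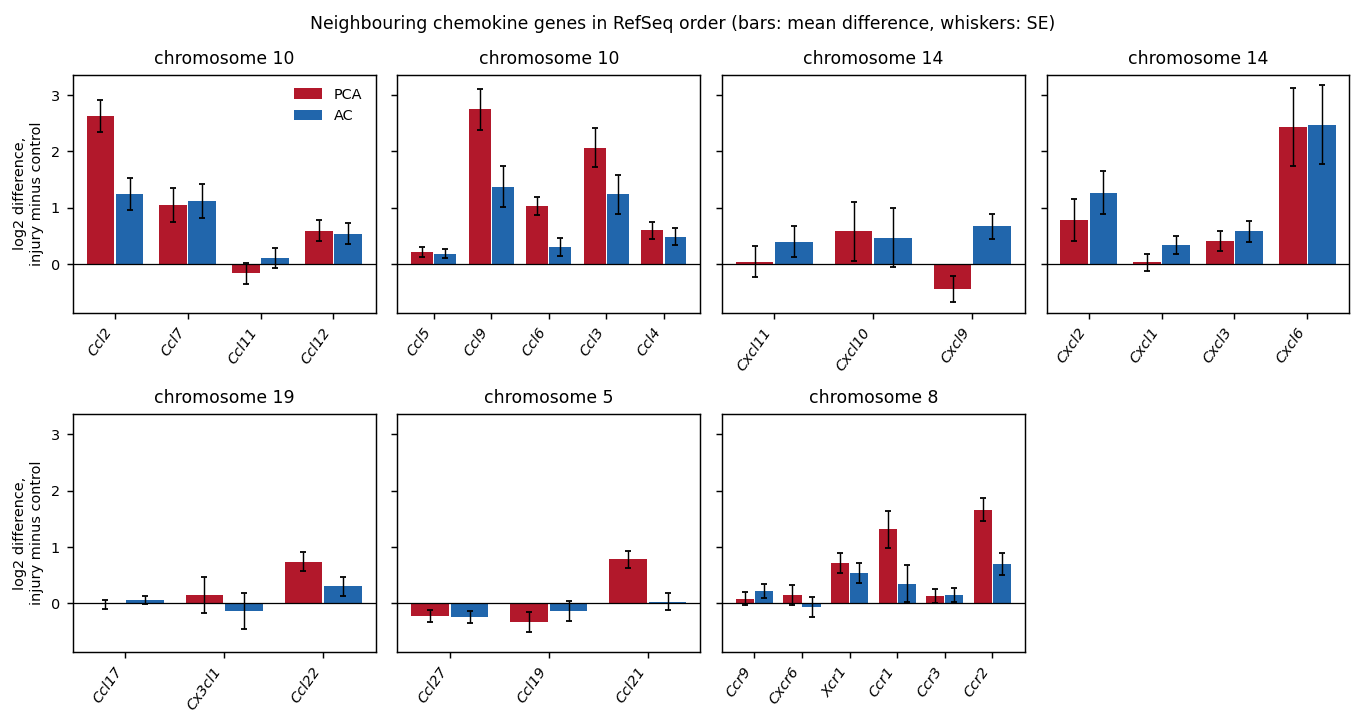
Log2 difference, injury minus control (y axis; bars, with SE as whiskers), of members that lie beside each other, in RefSeq order along 7 gene runs (x axis), in PCA (red) and AC (blue). Ccl11 stays near 0 between Ccl7 and Ccl12, and Ccr3 stays near 0 between Ccr1 and Ccr2.

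Cytokines and transcription factors known to act on chemokine genes were examined next. Of 14 cytokines known to induce chemokine genes 3 rose in injured PCA, where 13.3% of all genes rose, and none fell (median 0.105). The 3 were Il1b, made by activated macrophages (1.62 ± 0.43, adjusted p = 0.0181), Il1a (1.27 ± 0.30) and Csf1, the macrophage growth factor (0.55 ± 0.12). Il1b measured 9.23, 7.73 and 8.18 in injured PCA, against 6.55, 7.08 and 6.65 in control PCA, and 7.33, 9.15 and 8.05 in injured AC, against 6.60, 6.40 and 6.36 in control AC. In both muscles all injured arrays were above all controls. Il6, Ifng, Il17a, Il4, Il13, Il10, Csf2 and Lta had means below the dim level in all groups. The count of 14 and the median of 0.105 include these dim genes. Of 11 NF-kB, IRF and STAT factors 7 rose and 1 fell in PCA (median 0.32). The risers included the NF-kB inhibitor Nfkbie (0.87 ± 0.14) and the factors Irf8 (0.89 ± 0.18) and Irf1 (0.46 ± 0.09). The faller was another NF-kB inhibitor, Nfkbia, at 9.55, 9.19 and 9.10 in injured PCA, against 9.81, 9.49 and 9.68 in control PCA. In AC Nfkbia measured 9.30, 9.39 and 9.53 in injured arrays, against 9.90, 9.68 and 9.70 in controls. In AC limma called 0 of the 14 and 0 of the 11, with 3 and 6 at an unadjusted p under 0.05.

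Downstream of the receptors, 13 of 19 signalling genes rose in injured PCA and none fell (median 0.69, against -0.027 over all genes). They included the actin regulator Was (0.83 ± 0.10), the phospholipase Plcb2 (0.87 ± 0.13) and the exchange factor Vav1 (1.20 ± 0.23), all known from blood cells. In AC 1 of the 19 rose, Was at 0.55 ± 0.10 (adjusted p = 0.0291).

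The interferon-inducible ligands Cxcl9, Cxcl10 and Cxcl11, which bind Cxcr3 on activated T cells, were not called in either muscle in the 4-group fit. Cxcl10 measured 8.08, 7.21 and 7.90 in injured PCA, against 6.55, 8.55 and 6.35 in control PCA. Cxcl9 measured 8.42, 8.03 and 8.68 in injured PCA, against 8.41, 9.40 and 8.64 in control PCA. PCA control 2 was the highest of the 12 arrays for both, and the highest PCA array for Cxcl11 (6.36). It also had the highest list mean of 12 interferon response genes, 8.50 against 7.37 to 8.24 in the other arrays. With the squamous score as a covariate Cxcl9 was called lower in injured PCA (-1.23), against -0.44 ± 0.23 without it. PCA control 2 also had the highest squamous score of the PCA controls, 9.96 against 8.33 and 7.93. That fit thus cannot tell the squamous score from other traits of this array. In AC Cxcl9 measured 8.87, 8.85 and 8.87 in injured AC, against 8.22, 8.0 and 8.36 in control AC, with groups apart (0.67 ± 0.23, adjusted p = 0.136). The Cxcl9 effect in PCA minus that in AC was -1.11 ± 0.32 (95% interval -1.82 to -0.40, adjusted p = 0.119). Cxcl10 and Cxcl11 were highest among AC arrays in AC injury 3, at 8.04 and 6.60. Cxcr3 was at -0.03 ± 0.09 in PCA and 0.13 ± 0.09 in AC. Of the 12 interferon response genes 2 rose in PCA, where 13.3% of all genes rose, and 1 in AC, with medians of 0.23 and 0.17. The immunoproteasome subunit Psmb8 rose in both (0.46 ± 0.11 and 0.51 ± 0.11).

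**Figure D5:**
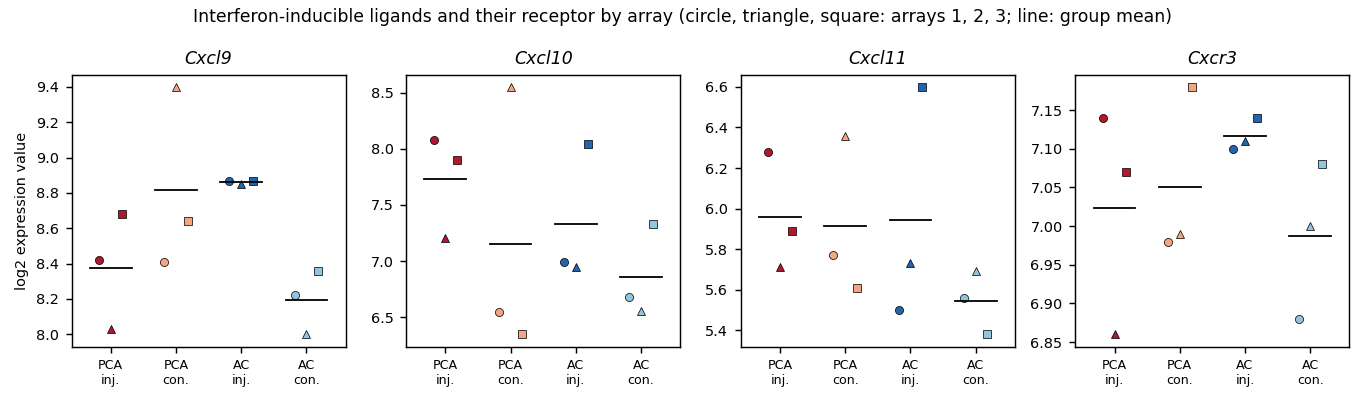
Log2 expression value (y axis, a separate scale per panel) of Cxcl9, Cxcl10, Cxcl11 and their receptor Cxcr3 by array in PCA injury, PCA control, AC injury and AC control (x axis, left to right). The PCA control 2 array (triangle) is at 9.40 for Cxcl9 and 8.55 for Cxcl10, above all 11 other arrays.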

How the data were processed

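The deposited table holds log2 values, 1 for every probe set on each of 12 microarrays; per the submitters' processing notes RMA and Partek were used, without version, role or order. No label names the base of the logarithm; base 2 was assumed, as the values span 2.57 to 14.04. RMA is known to equalise array distributions, so a difference says how a gene stood within its array. Array medians were 7.11 to 7.17. Precision is limited by the number of arrays.

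Of 27342 probe sets 15097 carried a single symbol, and the highest mean of a gene's probe sets was used. Symbols were checked by gene identifier against RefSeq (GRCr8), and 0 changed. The 4 group means were fitted together in limma 3.58.1 under R 4.3.3 (lmFit, eBayes; 8 residual and 3.14 prior degrees of freedom). Tests were two-sided. On simulated data with 200 of 14324 genes changed, the PCA injury contrast recovered 67.2% of 1.5-fold and 94% of 2-fold changes, and the AC injury contrast 68.7% and 91%. Noise was independent between genes there, so real recovery may be lower. The changed genes were drawn at random, and recovery may be lower still for members with a wide spread.

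The members, 18 marker lists, 8 pathway lists and the alternatives were chosen with earlier results of these data known. All members may be named, and members called with groups apart are given by array. From other lists the 3 smallest adjusted p of a comparison are named. Nfkbia and genes below the dim level were named besides, after their values were seen. Alternatives covered normalisation, dim genes, probe set choice, prior, array weights, a replicate block, the squamous score, groups fitted and arrays left out. Arrays were not treated as paired by replicate number. Deviations from the group means correlated at -0.393 to 0.339 between 18 same-numbered pairs, and 4 exceeded 0.1. Between 36 differently numbered pairs they correlated at -0.618 to 0.655. The highest was between PCA injury 2 and PCA control 1, both high in thyroid and parathyroid markers. Such traits of single arrays enter these correlations, so they cannot settle whether same-numbered arrays share an animal. Plots were made in Python 3.11.15 (matplotlib 3.10.9).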

Additional observations from a re-analysis of the deposited data

How the results depend on the processing

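The number of members called in PCA was 14 to 21 with single arrays left out and 3 with the squamous score as a covariate, of which 2 were among the 19 and Cxcl9 was new. With that score the differences of 17 of the 19 stayed within 1.5 times, with SE larger by 1.33 to 1.82 times. For AC the count of 0 became 6 with array weights, 7 with the AC arrays alone, and 0 to 7 with single arrays left out: 7 without AC injury 1, 4 and 3 without PCA injury 1 and 3, and 1 without PCA injury 2, PCA control 1 or PCA control 2, where PCA arrays enter only through the shared spread. The difference of injury effects had 2 members with array weights and 0 to 5 with single arrays left out (5 without PCA control 2). Control PCA against control AC had 8 with array weights, 0 with the squamous score (2 of the 4 differences within 1.5 times), and 4 to 7 with single arrays left out (7 without PCA control 2). Injured PCA against injured AC had 0 in all 22 settings. With the replicate number as a block 15 members were called in PCA and 4 in control PCA against control AC. The block rests on a shared number only, since the labels do not say that the numbers pair arrays. The causes were not tested. Shares of all genes called under each alternative are not given, so these counts of members, here or above, cannot be read against a background. Of 506 values of called members under these settings 452 stayed past the test, 54 did not and 0 turned sign. In PCA, Ccl2 and Ccl9 were called in all 22 settings; 13 members were called in all 21 settings other than the squamous score, and Ccl12, Ccl4, Ccl7, Ccr1, Cxcl14 and Cxcl6 were not. With 3 arrays per group small differences go undetected: in simulation 37.3% of 1.5-fold differences of effects were recovered. Some larger measured differences of members with a wide spread were not called either, such as Cxcl6 in AC at 2.47 ± 0.70 (limma, adjusted p = 0.0875).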

Other observations

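Genes through which leukocytes attach to vessels rose with the chemokine receptors in injured PCA. Of 12 leukocyte adhesion genes 9 rose and none fell (median 0.52, against -0.027 over all genes). Itgb2, the shared beta chain of leukocyte integrins, measured 10.69, 10.02 and 9.88 in injured PCA, against 7.67, 8.18 and 7.72 in control PCA, a rise of 2.34 ± 0.27 by limma (adjusted p = 0.000356, n = 3 arrays per group). Selplg, the leukocyte ligand of selectins, rose by 1.67 ± 0.22, and Itgal, the integrin chain that binds Icam1, by 1.36 ± 0.20. In AC 1 of the 12 rose, Itgal at 1.01 ± 0.20 (adjusted p = 0.035), and Itgb2 was at 1.06 ± 0.27 (adjusted p = 0.0699).

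Of 8 proteases known to cut chemokines 4 rose in injured PCA and none fell (median 0.49). Mmp12, the macrophage elastase, measured 11.81, 11.59 and 10.94 in injured PCA, against 6.94, 6.91 and 6.99 in control PCA. Adam17, which sheds membrane-bound ligands such as Cx3cl1, rose by 0.36 ± 0.08 (adjusted p = 0.00717). In AC limma called 0 of the 8 (3 at an unadjusted p under 0.05), with Mmp12 at 8.30, 9.80 and 11.07 in injured AC, against 6.90, 7.18 and 8.03 in control AC. Of 6 carriers of the sugar chains that hold chemokines 2 rose in injured PCA: Sdc1, which squamous epithelium also carries (1.70 ± 0.23), and the chain-building enzyme Ext1 (0.60 ± 0.10). In AC 0 of the 6 were called by limma, with 1 at an unadjusted p under 0.05. Of 10 chemotactic genes named outside the chemokine nomenclature 6 rose in injured PCA and none fell, among them the chemokine-like factor family genes Cmtm7 (1.08 ± 0.14) and Cmtm3 (1.05 ± 0.14). In AC 0 of the 10 were called by limma, with 4 at an unadjusted p under 0.05.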
